A study of Mus musculus with 6 samples.

Results

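The keratins of basal and stressed keratinocytes are examined here in immortalized mouse keratinocytes (MK cells), a line of skin epithelial cells in culture. The 10 genes were taken by symbol (GENCODE M21) from the 49315 genes counted: Krt5, Krt14, Krt15, Krt17, Krt6a, Krt6b, Krt16, Krt8, Krt18 and Krt19. All 10 passed the low-count filter, as did 13704 genes in all. Of the 53 protein-coding keratin genes in the annotation, the other 43 serve as context. Control cells were of the line MK-546 (MK-/-), which lacks α3 integrin, and 3A cells were MK-546-ha3A (MK-/-:ha3), the same cells given human α3 integrin. Each group had 3 libraries, named Control 1 to 3 and 3A 1 to 3. Both lines share the α3-null background and the immortalization, and both grew untreated on collagen-coated dishes at 33 °C with 8% CO2 to about 50 to 80% confluence. Each group is a single line, so restored α3 and the descent of the line cannot be told apart. The promoter that drives the human α3 gene is not given in the sources used here. Whether the replicates were grown separately is not stated, so each p-value reflects the spread between these libraries, which may be technical.

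Keratins are the intermediate filament proteins of epithelial cells. A filament needs a type I and a type II keratin, which bind each other as an obligate pair. Basal keratinocytes use the pair of Krt5 (type II) and Krt14 (type I), with Krt15 as a further basal type I keratin that also marks hair follicle stem cells. Wounded, inflamed or cultured keratinocytes switch on Krt6a, Krt6b, Krt16 and Krt17, often called the stress keratins. Krt8, Krt18 and Krt19 are keratins of simple epithelia and of embryonic skin, and are scarce in adult interfollicular epidermis. Most type I genes lie together on mouse chromosome 11 and the type II genes on chromosome 15. Krt18 is the type I gene that lies on chromosome 15, at the edge of the type II cluster.

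Total counts ranged from 25634204 to 36245240 per library. Control 1 stood apart: its log2 CPM (CPM, counts scaled to a fixed library size) correlated with the other Control libraries at a mean r of 0.955 across genes, against 0.970 to 0.990 for the same measure in the other libraries (genes are not independent replicates). Mitochondrial transcripts made up 1.17% of the counts in Control 1, 4.19% and 4.73% in Control 2 and Control 3, and 1.24% to 1.59% in 3A. Control 1 was thus close to 3A in this share, while Control 2 and Control 3 lay above every 3A library. Values without Control 1 are given beside the tests, counts and summed shares whose call, direction or overlap it changes. In those values the difference between the groups coincides with the difference in mitochondrial share. The part of mitochondrial transcripts in the results was not tested. Itga3, the altered gene, had a mean of 39.6 ± 6.84 CPM in Control against 69.4 ± 11.5 CPM for 3A (mean ± SD, n = 3), and reads of the human transgene may be counted on it, so it checks the labels only in part. Of all tested genes, 14.9% were called (7.52% higher and 7.39% lower in 3A) by edgeR's quasi-likelihood test at a Benjamini-Hochberg adjusted p under 0.05. In 36.1% the 3 libraries of one group lay wholly above those of the other.

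The sequences around the RefSeq starts of Krt8, Krt18 and Krt5 are shown because Krt8 and Krt18 encode partner keratins from divergent neighbouring genes that lay higher in 3A, while Krt5 lay lower. Of the 10 genes, 4 matched the RefSeq promoter table (build GRCm38.p6), which gives 250 bases before and 50 bases after a transcript start. Its starts lie 140 bases inside the gene as GENCODE annotates it for Krt8, 36 bases inside for Krt18 and 7 bases before it for Krt5, so these windows need not sit at the main start. The Krt14 entry starts 1518 bases inside the annotated gene and is not shown. Each sequence is printed 5′ to 3′ on the strand of its gene. Capitals mark matches on either strand to 5 short motifs. The TATA box was searched as TATAAA. The site of Sp1 was searched as GGGCGG. The site of Klf factors was searched as CACCC. The site of AP-1 was searched as TGANTCA. The site of AP-2 was searched as GCCNNNGGC, and no motif contains another. The windows are chr15:102004293-102004592 on the minus strand for Krt8, chr15:102027966-102028265 on the plus strand for Krt18 and chr15:101712856-101713155 on the minus strand for Krt5.
Krt8: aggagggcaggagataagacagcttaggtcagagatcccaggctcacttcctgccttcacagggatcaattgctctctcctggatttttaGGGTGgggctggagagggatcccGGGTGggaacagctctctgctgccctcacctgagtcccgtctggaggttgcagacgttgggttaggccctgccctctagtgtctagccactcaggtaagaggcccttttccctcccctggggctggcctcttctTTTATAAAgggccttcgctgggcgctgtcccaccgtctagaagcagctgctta
Krt18: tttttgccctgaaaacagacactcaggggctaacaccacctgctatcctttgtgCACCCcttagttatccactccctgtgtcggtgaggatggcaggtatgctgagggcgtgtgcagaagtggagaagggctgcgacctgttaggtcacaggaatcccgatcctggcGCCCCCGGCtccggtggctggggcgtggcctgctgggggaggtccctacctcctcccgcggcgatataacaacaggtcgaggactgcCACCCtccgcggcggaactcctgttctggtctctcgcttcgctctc
Krt5: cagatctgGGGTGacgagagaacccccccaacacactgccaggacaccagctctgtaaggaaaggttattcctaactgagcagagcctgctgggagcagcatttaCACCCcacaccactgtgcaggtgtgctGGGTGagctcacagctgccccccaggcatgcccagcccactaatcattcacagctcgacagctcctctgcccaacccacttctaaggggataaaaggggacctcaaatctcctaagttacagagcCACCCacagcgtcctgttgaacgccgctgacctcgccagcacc
CACCC occurred in all 3 windows and in 57.5% of the 32841 promoters of this length. TATAAA occurred in the Krt8 window alone of the 3, on both strands as overlapping matches that reach the RefSeq start, with first bases 3 and 1 before it (13.6% of all promoters). GCCNNNGGC occurred in the Krt18 window alone, 83 bases before the start (16.6% of all). The Sp1 and AP-1 motifs, held by 35.7% and 7.81% of all promoters, had no match in the 3 windows. A match is a description of letters and shows neither binding nor use.

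In 3A the simple epithelial keratin genes Krt19 and Krt8 rose, and the basal gene Krt15 and the stress gene Krt16 fell. The abundant basal pair Krt5 and Krt14 lay lower in every 3A library without passing the test, and Krt17, Krt6a and Krt6b overlapped between the groups. In all, 2 of the 10 genes were called higher and 2 lower, which is 4 of 10 against 14.9% of all tested genes. Krt15, among those lower, passed the low-count filter only through Control, where it was higher. The groups did not overlap for 7 of the 10, with 3A above for 3 and below for 4, against 36.1% of all tested genes (18.6% above and 17.6% below). The median log2 fold change of the 10 was -0.34, compared with -0.02 over all tested genes. In bulk RNA, a change in the number of cells that express a keratin and a change in its RNA per cell cannot be told apart.

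**Figure D1:**
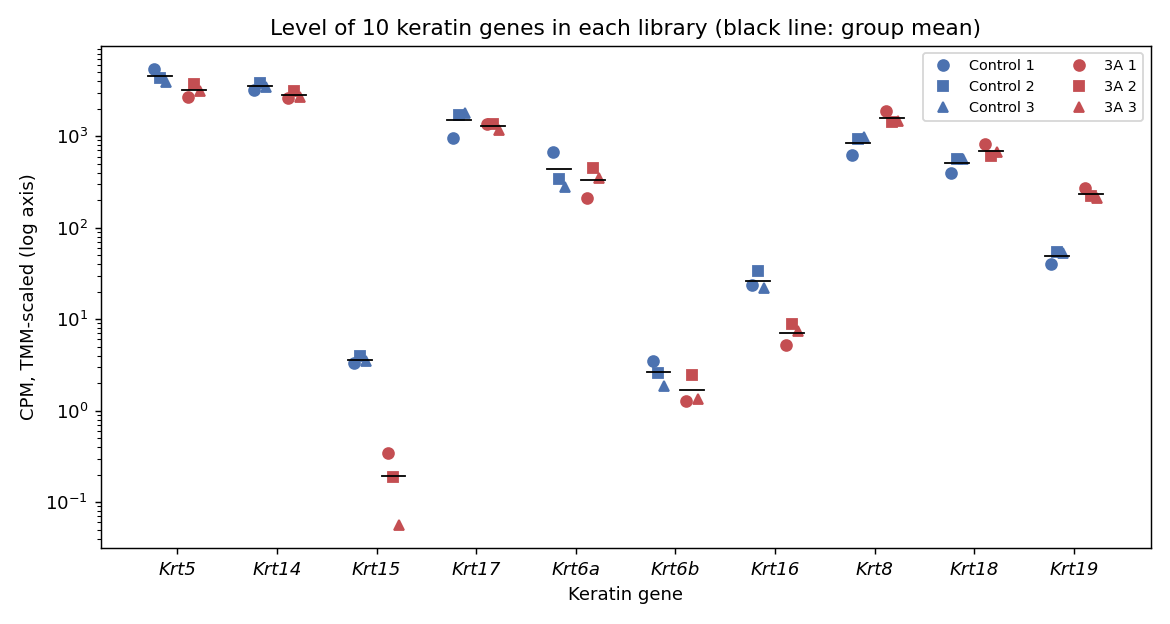
Level of each of the 10 keratin genes in CPM (log axis) in each library, with Control in blue, 3A in red, a marker shape for each replicate number and a black line at the group mean. Krt19 and Krt8 sit higher and Krt15 and Krt16 lower in all 3 libraries of 3A, while Krt17, Krt6a and Krt6b overlap.

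Krt19, the smallest type I keratin, which lacks most of the tail domain, had the largest rise of the 10. Its level was 39.7, 54.1 and 53.3 CPM across Control 1 to 3, against 273, 223 and 209 CPM across 3A 1 to 3. The lowest 3A library thus lay well above the highest Control library. The mean was 49.1 ± 8.10 CPM in Control against 235 ± 33.5 CPM for 3A (SD, n = 3), which is 4.79-fold or a log2 fold change of 2.26 with SE 0.19 (adjusted p = 0.000846 by edgeR). Leaving out any single library gave log2 fold changes from 2.14 to 2.35, each of which passed. Krt19 maps to chromosome 11, 100140810 to 100148665, minus strand (GRCm38).

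Krt8, the type II keratin of simple epithelia, had 617, 938 and 970 CPM across Control 1 to 3, against 1887, 1447 and 1459 CPM across 3A 1 to 3. Control 1 was the lowest library and 3A 1 the highest, and the groups did not overlap. The mean went from 842 ± 195 to 1597 ± 251 CPM (SD, n = 3), a log2 fold change of 0.92 with SE 0.23 (adjusted p = 0.0376 by edgeR). This call was close to the threshold. The adjusted p was 0.00583 without Control 1, but 0.104, 0.0665, 0.0900, 0.110 and 0.106 without Control 2, Control 3, 3A 1, 3A 2 and 3A 3, with log2 fold changes from 0.80 to 1.04. With upper quartile scaling it was 0.0503, and DESeq2, which called 26% of all tested genes, gave 0.00268. Krt8 maps to chromosome 15, 101996698 to 102004482, minus strand.

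Krt18, the type I partner of Krt8, starts 23697 bases from it on the opposite strand (chromosome 15, 102028180 to 102032027), so the genes point away from each other. It had 393, 563 and 563 CPM across Control 1 to 3, against 814, 609 and 672 CPM across 3A 1 to 3. All 3A libraries lay above all Control libraries, though 3A 2 exceeded Control 2 and Control 3 by little. The difference did not pass (log2 fold change 0.46, 95% confidence interval -0.02 to 0.95, edgeR adjusted p = 0.158), and it passed in no fit that left out a single library. The interval includes no difference and a difference near that of Krt8. A processed pseudogene of Krt8, Krt8-ps on chromosome 7, holds 26.9% of the distinct 50-base words of Krt8. It had 308, 457 and 325 counts across Control, against 1008, 808 and 750 across 3A, so it was higher in the same libraries as Krt8, whose reads may be divided with it.

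The basal pair was the most abundant. Krt5 had 5466, 4282 and 3943 CPM across Control 1 to 3, against 2712, 3704 and 3155 CPM across 3A 1 to 3. Krt14 had 3209, 3834 and 3485 CPM across Control, against 2633, 3125 and 2673 CPM across 3A. Both genes were lower in all 3 libraries of 3A, with the closest approach between 3A 2 and the lowest Control library. Neither passed (Krt5 log2 fold change -0.52, 95% interval -1.01 to -0.03, edgeR adjusted p = 0.131; Krt14 -0.32, -0.72 to 0.08, adjusted p = 0.219). Without Control 1, Krt14 had a log2 fold change of -0.37 and passed (edgeR adjusted p = 0.0463), in a fit that called 52% of all tested genes. Krt5 did not pass there (-0.36, adjusted p = 0.0848). Krt5 lies on chromosome 15 at 101707070 to 101712898 and Krt14 on chromosome 11 at 100203162 to 100207548, both on the minus strand.

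Krt15, a further basal type I keratin, was scarce in Control and fell to a few counts per library in 3A. Control 1 to 3 held 106, 116 and 82 of its counts, or 3.36, 3.96 and 3.48 CPM. The 3A libraries 1 to 3 held 12, 7 and 2, or 0.344, 0.187 and 0.0557 CPM. The Control libraries lay close together and every 3A library was far below them. The fitted log2 fold change was -4.18 with SE 0.52 (adjusted p = 0.00317 by edgeR), and at 2 to 12 counts per 3A library its size is imprecise. It passed the test without each library in turn, with log2 fold changes from -4.83 (without 3A 1) to -3.74 (without 3A 3). These fits share the selection by the low-count filter, which Krt15 passed only through Control. Krt15 (chromosome 11, 100131758 to 100135928, minus strand) is the nearest keratin neighbour of Krt19, 4881 bases away, and the 2 genes moved in opposite directions.

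Among the stress keratins, Krt16 was the gene that fell. This type I keratin had 23.6, 33.4 and 21.7 CPM across Control 1 to 3, against 5.24, 8.77 and 7.38 CPM across 3A 1 to 3. The groups were well apart. The means were 26.2 ± 6.28 and 7.13 ± 1.77 CPM (SD, n = 3), a log2 fold change of -1.88 with SE 0.26 (adjusted p = 0.00477 by edgeR), and the call held without each library in turn (-2.05 to -1.67). Krt16 maps to chromosome 11, 100246091 to 100248902, minus strand. Of its distinct 50-base words 37.6% occur in another gene, mostly in the pseudogene Gm11597, which had at most 5 counts in any library, and in Krt14, so some of its reads may be divided with them.

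Krt17, the most abundant stress keratin (chromosome 11, 100256217 to 100261029, 7314 bases from Krt16), had 961, 1723 and 1787 CPM in Control 1, 2 and 3. It had 1355, 1353 and 1157 CPM in 3A 1, 2 and 3, between Control 1 and the other Control libraries. The log2 fold change was -0.21 (95% interval -0.81 to 0.39, edgeR adjusted p = 0.579). Without Control 1 it was -0.44 and passed (edgeR adjusted p = 0.0228). The call on Krt17 thus changed with the inclusion of Control 1.

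Krt6a, the main type II stress keratin, had 677, 341 and 282 CPM across Control 1 to 3, against 211, 447 and 350 CPM across 3A 1 to 3. The groups overlapped, with Control 1 the highest and 3A 1 the lowest library. The log2 fold change was -0.37 (95% interval -1.29 to 0.56, edgeR adjusted p = 0.527), and without Control 1 it was 0.12, on the other side of 0. Krt6b, its near copy 9622 bases away on chromosome 15, had 3.52, 2.56 and 1.87 CPM across Control, against 1.26, 2.45 and 1.34 CPM across 3A (log2 fold change -0.66, adjusted p = 0.249). The 2 genes share 972 of their distinct 50-base words, 40.2% of those of Krt6a and 44.5% of those of Krt6b. Words found in any other gene made up 57.2% for Krt6a and 50.1% for Krt6b. Krt5, the more abundant gene, shares 150 words with Krt6a, and 12.2% of its words occur in another gene. Krt6a maps to chromosome 15, 101689910 to 101694307, and Krt6b to 101676023 to 101680287, both on the minus strand. With the counting of such reads not given in the sources used here, the split between Krt6a, Krt6b and other genes that share words with them is uncertain.

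**Figure D2:**
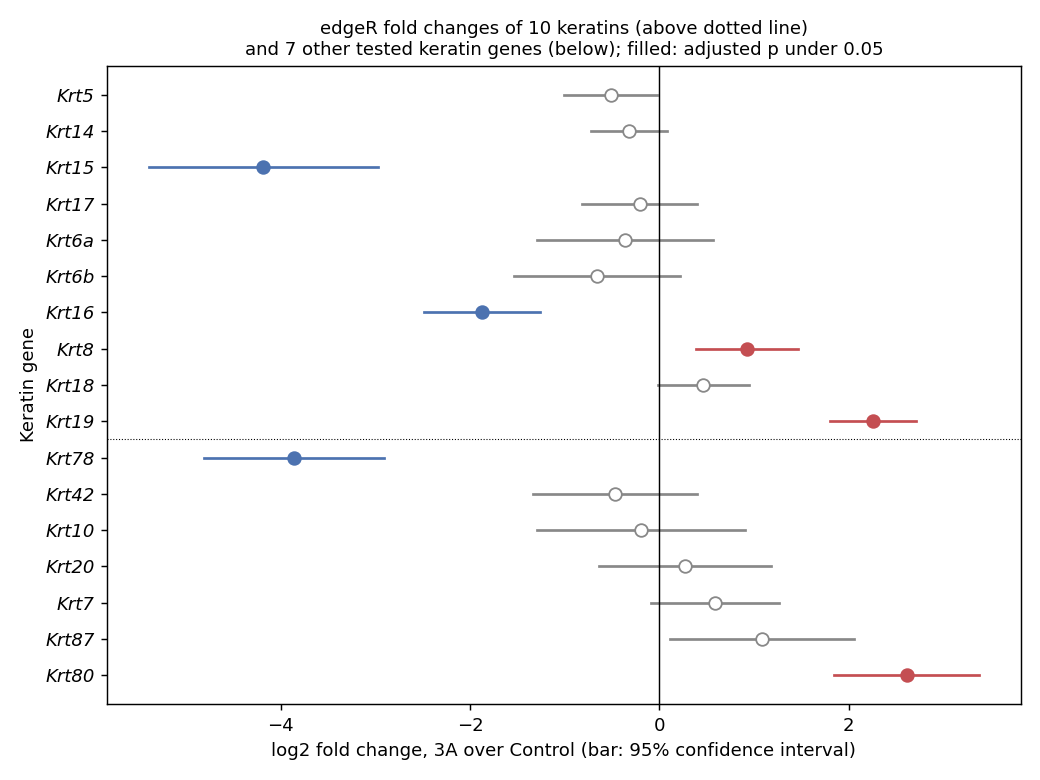
log2 fold change of 3A over Control with its 95% confidence interval for the 10 keratins (above the dotted line) and 7 other tested keratin genes (below), filled in red or blue where the edgeR adjusted p was under 0.05. Krt19 (2.26), Krt8 (0.92) and Krt80 (2.61) are filled on the right, and Krt15 (-4.18), Krt16 (-1.88) and Krt78 (-3.86) on the left.

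The share of each gene in the summed counts of the 10 keratins was taken without a test. This sum leaves out the other keratin genes, among them the abundant Krt7, so it is not the whole keratin RNA. Krt8, Krt18 and Krt19 together held 9.21%, 13.2% and 14.3% of these counts across Control 1 to 3, against 30.1%, 20.9% and 24.2% across 3A 1 to 3. Krt5 and Krt14 together held 76.1%, 68.9% and 66.9% across Control, against 54.0%, 62.5% and 60.2% across 3A. Neither sum overlapped between the groups. The stress keratins held 14.6%, 17.8% and 18.8% across Control (17.1 ± 2.20%), against 15.9%, 16.6% and 15.7% across 3A (16.0 ± 0.483%, SD, n = 3). The groups overlapped through Control 1 alone, and without it both Control libraries lay above all 3A libraries. Krt8 accounted for most of that difference in the simple epithelial keratins and went from 7.37 ± 1.74% to 15.8 ± 2.98%, whereas Krt19 went from 0.430 ± 0.0707% to 2.32 ± 0.384%. The 10 genes together made up 1.12 ± 0.0948% of all counts in Control and 1.04 ± 0.0771% in 3A, values that overlapped.

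**Figure D3:**
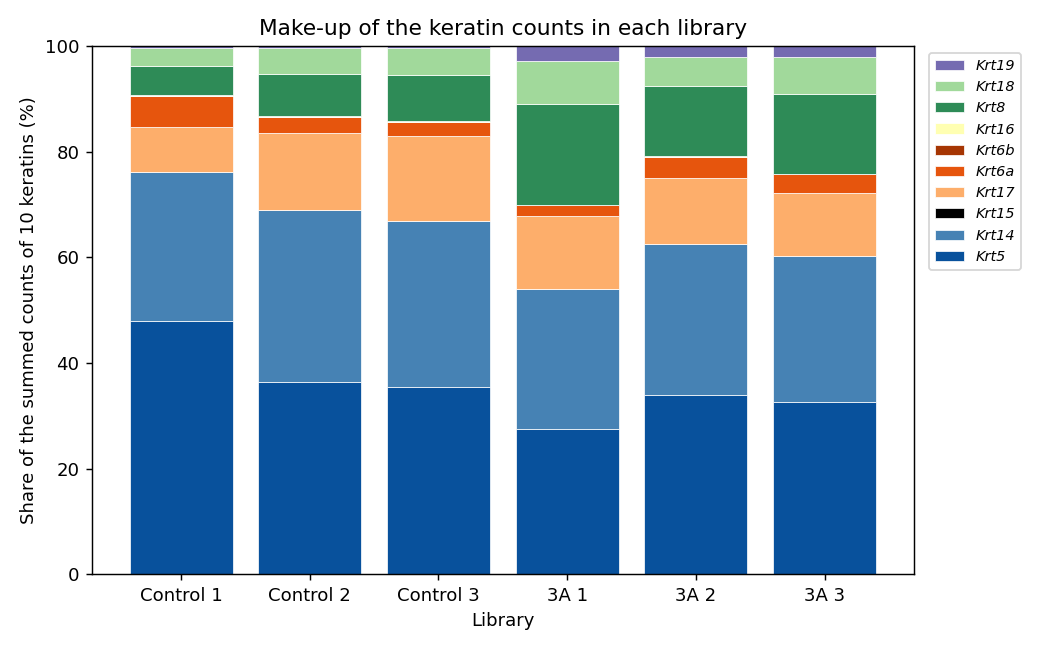
Stacked shares (percent) of the summed counts of 10 keratins in each library, one colour per gene. The green and purple blocks of Krt8, Krt18 and Krt19 take 20.9% to 30.1% in 3A and 9.21% to 14.3% in Control, while Krt15, Krt16 and Krt6b are too small to see.

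Levels were ordered across genes on a per-length scale, CPM per kilobase of annotated exon. In Control the order was Krt5 (2077 ± 364), Krt14 (1996 ± 178), Krt17 (961 ± 296), Krt8 (430 ± 99.7), Krt18 (352 ± 68.4), Krt6a (179 ± 88.2), Krt19 (26.4 ± 4.37), Krt16 (16.8 ± 4.01), Krt15 (2.04 ± 0.181) and Krt6b (1.19 ± 0.371). The library ranges of Krt5 and Krt14 overlapped, as did those of Krt8 and Krt18 and of Krt18 and Krt6a. The other neighbours in that order were apart. In 3A, Krt8 (816 ± 128) had drawn level with Krt17 (830 ± 73.2) and Krt19 (127 ± 18.0) with Krt6a (139 ± 49.0), each pair with overlapping ranges. Krt14 (1598 ± 155) and Krt5 (1452 ± 226) overlapped at the top, and Krt15 (0.111 ± 0.0817) was last, below Krt6b (0.753 ± 0.298).

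Ratios of type II to type I partners were taken on the same per-length scale. Krt8 to Krt18 was 1.15, 1.22 and 1.26 across Control 1 to 3, against 1.70, 1.74 and 1.59 across 3A 1 to 3, higher in every 3A library. Krt5 to Krt14 was 1.36, 0.894 and 0.905 across Control, against 0.824, 0.949 and 0.945 across 3A, with Control 1 apart and the rest close together. Krt6a to Krt16 was 6.60 to 18.6 in Control and 26.1 to 33.0 in 3A, above the Control range in every 3A library. Krt6a to Krt17, the more abundant type I stress keratin, was 0.452, 0.127 and 0.101 across Control, against 0.100, 0.212 and 0.194 across 3A, which overlapped. Over all 10 genes the type II share of the counts was 59.4%, 47.2% and 46.8% across Control (51.1 ± 7.14%), against 48.6%, 51.3% and 51.3% across 3A (50.4 ± 1.53%, SD, n = 3). The overlap came from Control 1. Without it the 2 Control libraries lay below all 3A libraries, and the mean difference of -0.728 percentage points became 3.39. Those 2 libraries also had a higher mitochondrial share than every 3A library, and the part of that share was not tested. With all protein-coding keratin genes summed, the type II share was 56.1 ± 5.22% in Control and 58.3 ± 0.517% in 3A. That difference was 2.25 percentage points, and the groups overlapped. Krt8 and Krt18 summed, as a ratio to Krt5 and Krt14 summed, went from 0.136, 0.211 and 0.235 in Control to 0.560, 0.336 and 0.410 in 3A.

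**Figure D4:**
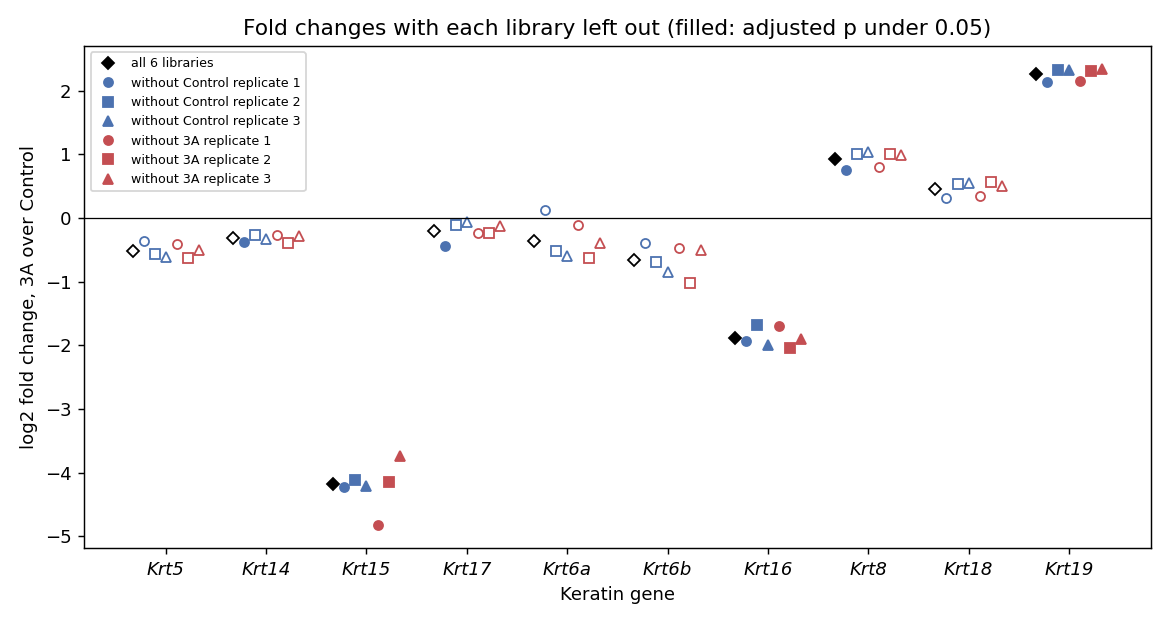
log2 fold change of 3A over Control for each keratin with all 6 libraries (black diamond) and with each library left out (blue, a Control library; red, a 3A library), filled where the edgeR adjusted p was under 0.05. Krt15, Krt16 and Krt19 are filled throughout, Krt8 with all 6 libraries and without Control 1, and Krt14 and Krt17 without Control 1.

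Over the single libraries left out, Krt19 stayed higher and Krt15 and Krt16 lower in all 6 fits. Krt8 was called higher without Control 1 and in no other of those fits. The share of all tested genes called was 52% without Control 1, and 5.99%, 6.98%, 9.18%, 4.72% and 4.77% without Control 2, Control 3, 3A 1, 3A 2 and 3A 3. Without Control 1, 2 of the 10 keratins were called higher and 4 lower. Without any other library 1 was called higher and 2 lower.

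Of the 43 other keratin genes, 7 passed the filter, and 1 was called higher and 1 lower, against 7.52% and 7.39% of all tested genes. Krt7, a type II keratin of simple epithelia (chromosome 15, 101411043 to 101430313), was as abundant as several of the 10, with a mean of 1250 ± 383 CPM in Control against 1874 ± 444 CPM for 3A (SD, n = 3). All 3A libraries lay above Control, but the difference did not pass (log2 fold change 0.58, edgeR adjusted p = 0.195). With every keratin gene in the sum, Krt7 held 9.80 ± 2.81% of keratin counts in Control and 15.5 ± 3.40% in 3A. Its type II neighbour Krt80 (chromosome 15, 101347444 to 101370162) went up to 54.0 ± 8.44 CPM from 8.82 ± 3.88 CPM (log2 fold change 2.61, adjusted p = 0.00326). Krt78, another type II gene, fell from 1.94 ± 0.337 to 0.130 ± 0.0620 CPM (-3.86, adjusted p = 0.00161). It passed the low-count filter only through Control, where it was higher. The suprabasal type I gene Krt10 had 1.89 and 1.63 CPM in Control and 3A, and its type II partner Krt1 had 1 count in 1 library and 0 in the rest. Without Control 1, 2 of these other keratins were called higher and 1 lower, against 26.2% and 25.8% of all tested genes in that fit.

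Genes that work with keratins were examined as lists. Among 12 tested genes for linkers and plaque proteins, which attach keratin filaments to desmosomes and hemidesmosomes, 0 were called higher and 2 lower by edgeR (median log2 fold change -0.27), against 7.52% and 7.39% of all tested genes. At an unadjusted p under 0.05, 0 were higher and 6 lower, against 15.8% and 18.1% of all tested genes. DESeq2 called 0 and 5, against 12.2% and 13.8%, and limma-voom, which called 15.2% of all tested genes, 0 and 2. The 2 were the plakophilin genes Pkp2 (-3.40) and Pkp1 (-0.92). Plec, Dsp, Jup, Itga6 and Itgb4 overlapped between groups, with log2 differences from -0.16 to 0.28. For Dsp and Itgb4 the overlap came from Control 1. Control 2 and Control 3 had 169 and 147 CPM of Dsp, below the 184 to 294 CPM of 3A. For Itgb4 they had 273 and 245 CPM, below the 306 to 412 CPM of 3A. Without Control 1, 2 linkers were called higher and 5 lower, against 26.2% and 25.8% of all tested genes in that fit. Without 3A 1, 3A 2 or 3A 3 the counts were 0 and 1. Those fits called 2.46% to 4.54% of all tested genes higher and 2.26% to 4.64% lower.

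Of 11 network organisers, which modify, bind or turn over keratins, 0 were called higher and 1 lower by edgeR, against 7.52% and 7.39% of all tested genes. At an unadjusted p under 0.05 the counts were 1 and 1 (15.8% and 18.1% of all tested genes). DESeq2 called 1 and 1 (12.2% and 13.8%) and limma-voom 0 and 1. The gene called lower by edgeR was Hspb1, which encodes a small heat shock protein. Its mean was 287 ± 91.8 CPM in Control against 54.8 ± 13.2 CPM for 3A (log2 fold change -2.39, edgeR adjusted p = 0.00355). Sfn, the gene of the keratinocyte 14-3-3 protein that binds Krt17, had 459 ± 59.5 and 575 ± 87.4 CPM (0.33, adjusted p = 0.241). Without Control 1, 2 organisers were called higher and 2 lower, against 26.2% and 25.8% of all tested genes in that fit.

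Of 21 tested transcription factors that regulate keratin genes, 0 were called higher and 5 lower by edgeR, against 7.52% and 7.39% of all tested genes, with a median log2 fold change of -0.38. The counts were 0 and 6 at an unadjusted p under 0.05 (15.8% and 18.1% of all tested genes), 0 and 6 by DESeq2 (12.2% and 13.8%) and 0 and 5 by limma-voom. Klf5 fell from 65.1 ± 8.21 to 36.2 ± 4.92 CPM (log2 fold change -0.84, edgeR adjusted p = 0.0197) and Klf4, a differentiation factor, from 124 ± 31.0 to 55.2 ± 10.9 CPM (-1.17, adjusted p = 0.0208). Tfap2c (-1.47) and Cebpb (-1.53) fell as well, and so did Trp63, the p63 gene of stratified epithelia (-0.61), named after its value was seen. The 5 had adjusted p between 0.0197 and 0.0491. Without Control 1, 2 were called higher and 7 lower, in the fit that called 52% of all tested genes. Without Control 2, Control 3, 3A 1, 3A 2 and 3A 3, 0 were called higher and 1, 0, 2, 0 and 0 lower. Those fits called 2.46% to 4.54% of all tested genes higher and 2.26% to 4.64% lower.

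Other genes that activated keratinocytes switch on moved in both directions. Of 14 tested, 6 rose and 2 fell by edgeR, against 7.52% and 7.39% of all tested genes, with a median log2 fold change of 0.42. Areg, an EGF receptor ligand, rose by 2.43 and the cytokine gene Il1a by 2.09 on the log2 scale. Il1b, a related cytokine, went from 0.111 ± 0.0970 to 1.79 ± 0.226 CPM, and Lcn2, which encodes lipocalin-2, fell by 2.38. Il1b passed the low-count filter only through 3A, where it was higher. The others called were Plaur, S100a8 and Serpinb2 (higher) and Il1rn (lower), named after their values were seen. Without Control 1 the numbers were 8 higher and 3 lower, in a fit that called 26.2% of all tested genes higher and 25.8% lower. With any other single library left out, 4 to 5 were higher and 1 lower. Those fits called 2.46% to 4.54% of all tested genes higher and 2.26% to 4.64% lower. Over the 7 tested genes of other intermediate filaments, 0 were called by edgeR, at an unadjusted p under 0.05, by DESeq2 and by limma-voom. Vim, the mesenchymal filament gene, had a mean of 0.400 ± 0.181 CPM in Control against 0.618 ± 0.0760 CPM for 3A. Without Control 1, 1 gene of this list was called higher, against 26.2% of all tested genes in that fit.

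**Figure D5:**
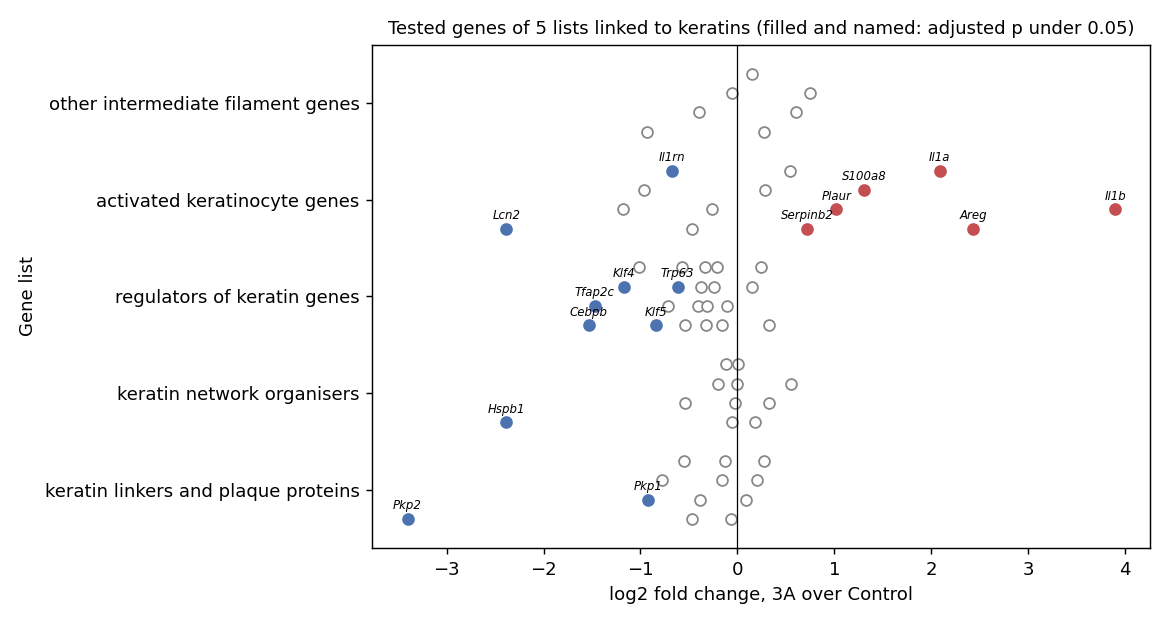
log2 fold change of 3A over Control for the tested genes of 5 lists linked to keratins, filled and named where the edgeR adjusted p was under 0.05; points are spread vertically within a list for legibility. The 5 filled regulators lie left of 0, and the activated keratinocyte genes lie on both sides.

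The genes with the most similar profile were found from log2 CPM centred on each gene's mean over the 6 libraries, as the smallest root mean square difference among 9649 genes with at least 5 CPM. For Krt5 these were Dst (difference 0.053), Soga1 (0.055) and Slc29a3 (0.055), and for Krt18 they were Idh3a (0.036), Hoxd8 (0.053) and Znhit3 (0.054). Krt16 was closest to Gsta3 (0.247), Dmkn (0.250) and Raet1e (0.257). Krt15 had no near match, with Serpinb6c, Tspan15 and Selenom at 0.613, 0.617 and 0.629. At 2 to 12 counts per 3A library its profile is imprecise, so these distances do not show that it is distinct. Among the 10 keratins, the closest pairs were Krt5 with Krt14 (0.232) and Krt8 with Krt18 (0.240). Pairs that are not filament partners came close behind, Krt5 with Krt6b (0.243) and Krt14 with Krt17 (0.261). The farthest pair was Krt15 with Krt19 (3.29). Many genes share so short a profile, and all libraries share their depth and scaling.

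Cell type markers were read beside these values. All 9 basal keratinocyte markers passed the filter, and their summed level was 3206 to 3493 CPM in Control and 2059 to 2693 CPM in 3A. The sum was lower in 3A, but the list did not move as 1 group. Itga6, Cdh1 and, through Control 1 alone, Itgb4 overlapped between the groups (log2 fold changes 0.20, -0.08 and 0.28). Trp63, Col17a1, Lamb3, Cdh3, Dst and Perp lay lower in every 3A library, with Perp the most abundant (998 ± 152 and 579 ± 30.1 CPM). Of 9 suprabasal markers 4 passed (16.8 to 36.6 CPM summed in Control and 13.7 to 15.6 in 3A), with Flg and Dsg1a at 0 counts. Most of that sum was Ivl and Sbsn, and Lor went the other way (1.15 ± 0.416 and 2.27 ± 0.372 CPM). For Merkel cells, which also use Krt8 and Krt18, 4 of 6 passed and Atoh1 was at 0 counts. Their sum of 28.2 to 54.8 CPM in Control and 7.91 to 10.8 CPM in 3A was lower in 3A, where Krt8 was higher. The sum followed Sox2, which fell from 37.9 ± 12.6 to 4.06 ± 1.04 CPM (edgeR adjusted p = 0.00149). The list did not move as 1 group, since Piezo2, an ion channel gene of touch sensing, rose from 0.0703 ± 0.0578 to 0.682 ± 0.0462 CPM (adjusted p = 0.00852). Isl1 and Krt20 overlapped between the groups (log2 fold changes -0.47 and 0.27), Isl1 through Control 1 alone. Chga had at most 3 counts in any library. Of 7 hair follicle bulge markers 3 passed, with 37.6 to 63.3 CPM in Control and 22.8 to 38.8 CPM in 3A. That overlap came from Control 1, as Control 2 and Control 3 had 51.0 and 63.3 CPM. Fibroblast markers (4 of 7 passed, Lum at 0) summed to 9.83 to 14.1 CPM in Control and 4.37 to 6.93 in 3A. That sum followed Twist2 (9.57 ± 2.76 and 3.03 ± 0.985 CPM), while Col1a1, Col1a2 and Pdgfra overlapped between the groups, Col1a1 through Control 1 alone. Melanocyte markers (2 of 6, Tyr and Dct at 0) summed to 3.28 to 3.91 and 1.63 to 2.13 CPM. Leukocyte markers (2 of 6, Adgre1 at 0) summed to 50.9 to 79.6 and 42.8 to 51.2 CPM, which overlapped through Control 1 alone. Nearly all of the leukocyte sum was Cd74 and Cd68. Endothelial markers (1 of 5, Emcn at 0) stayed under 1 CPM. The part of these markers in the keratin results was not tested.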

How the data were processed

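The authors deposited unnormalized read counts for 49315 mouse Ensembl IDs, 1 column for each of 6 libraries. The submitters' processing notes list featureCounts, Trim Galore, limma and edgeR, with builds GRCh38, hg38 and mm10, and give neither versions nor roles. No aligner, annotation release or strand setting was given in the sources used here. Symbols, positions (1-based) and exon lengths came from GENCODE M21 (GRCm38), which matched 49056 IDs and not the other 259.

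The test was that of edgeR 4.0.16 under R 4.3.3 (filterByExpr, TMM scaling, glmQLFit and glmQLFTest, group as the only term), with Benjamini-Hochberg adjustment over 13704 tested genes and a threshold of 0.05. CPM uses TMM-scaled library sizes. Standard errors came from the fold change and the F statistic. The script was tested on simulated data. Shares and ratios of chosen genes got no test.

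The keratins, lists and tests were chosen with earlier results of these data known. The rule for names took all 10 keratins, tested other keratins, up to 4 called genes per list by smallest p, and the 3 most similar genes for Krt5, Krt15, Krt16 and Krt18. Eppk1 had no matching symbol and was not analysed here. Shared 50-base words were counted on GENCODE M21 transcripts. Alternatives were other scalings and filters, DESeq2 1.42.0, limma-voom (limma 3.58.1), a replicate block, a stricter threshold, per-length and all-keratin sums, and each library left out.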

Additional observations from a re-analysis of the deposited data

How the results depend on the processing

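Krt15, Krt16 and Krt19 kept their direction and their call under every alternative run, and Krt5, Krt18, Krt6a and Krt6b were called under none. Krt8 was not called with upper quartile scaling, with the replicate number as a block (edgeR adjusted p = 0.204), at an adjusted p under 0.01 or without any single library other than Control 1. The Krt6a log2 fold change was 0.12 without Control 1, on the other side of 0, and ranged from -0.62 to 0.12 over the libraries left out, and Krt14 and Krt17 were called only without Control 1; the cause was not tested. Keratins called higher numbered 1 with upper quartile scaling, 1 with the replicate block and 1 at an adjusted p under 0.01, and 1 to 2 with a library left out. Those called lower numbered 2 to 4 with a library left out, in fits that called 4.72% to 52% of all tested genes. Over all tested genes, 14.9% were called in the main test, 26% by DESeq2, 2.1% with the replicate block, 8.17% with no low-count filter (25896 genes tested) and 5.22% at an adjusted p under 0.01.

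With a library left out, other keratins called higher numbered 1 to 2 and lower 1, linkers higher 0 to 2 and lower 1 to 5, organisers higher 0 to 2 and lower 1 to 2, regulators higher 0 to 2 and lower 0 to 7, activated keratinocyte genes higher 4 to 8 and lower 1 to 3, and other intermediate filament genes higher 0 to 1. Over these fits 2.46% to 26.2% of all tested genes were called higher and 2.26% to 25.8% lower. The top of each range came from the fit without Control 1. DESeq2 called 5 linkers lower and 1 organiser higher, against 13.8% and 12.2% of all tested genes. With the replicate block, 1 linker, 0 organisers, 0 regulators and 1 activated keratinocyte gene were lower and 2 activated keratinocyte genes higher. That fit called 1.07% of all tested genes lower and 1.04% higher. At an adjusted p under 0.01, 1 linker, 0 regulators and 1 activated keratinocyte gene were lower, and with library size alone 1 activated keratinocyte gene was lower. Those settings called 2.57% and 5.92% of all tested genes lower. Per kilobase of exon, the keratin share of all counts was 0.125 percentage points higher in 3A, against a difference of -0.0728 in counts, both within the spread between libraries.

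Same-numbered libraries did not resemble each other: their deviations from the group means correlated at -0.660, -0.419 and -0.375 across genes, and no library correlated best with its own number. Deviations from a mean of 3 libraries are tied to one another. These values therefore cannot decide whether the replicate number had a smaller effect. Depth limits the fold changes of Krt15, at 2 to 12 counts per 3A library, of Krt78, at 3 to 7 counts per 3A library, and of Il1b, at 1 to 7 counts per Control library. The same holds for Piezo2, at 1 to 4 counts per Control library. Each of these genes passed the low-count filter only through the group where it was higher.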
